A study of Arabidopsis thaliana with 12 samples.

Results

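Nuclear genes for plastid ribosomal proteins were compared between Arabidopsis thaliana plants raised in photosystem II-specific light (PSII light) and plants raised in photosystem I-specific light (PSI light). The set comprised the 5 genes AT1G29070, AT3G54210, AT4G01310, AT1G64510 and AT3G13120, each with 1 probe annotated to that gene alone, of 692 probes annotated to 1 gene and 3439 probes in all. The rule that picks them names genes and uses no measured value, but it was written with earlier results of these data known. All plants were wild type, ecotype C24. The labels give no age, tissue, light intensity or duration, so the effect of the photosystem favoured cannot be told apart from that of any other property of the 2 lights.

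Total RNA of 6 samples per group was measured by array. Each sample had 1 spot intensity per probe, in arbitrary units, and summed intensity per sample lay between 3642.89 and 3767.52. Within each group, the samples numbered 1 and 2, 3 and 4, and 5 and 6 deviated together across probes and were averaged as repeat measurements, leaving 3 replicates per group. Nothing says that replicates came from separate plants, and the spread on which the p-values below rest may be technical. Differences are PSII light minus PSI light on quantile-normalized log2(intensity + 0.193), on which changes of dim probes come out too small, and the threshold was a Benjamini-Hochberg adjusted p of 0.05 over all probes. The labels name no tissue. All 6 marker genes of green tissue had signal, but only 101 of 3439 probes had no signal in any sample, so this does not establish the tissue. In brightness the markers stood between the 57.0 percentile of all probes, for SBPASE, and the 99.5 percentile, for PSBW. The photosystem II antenna gene LHB1B2 was at 10.03 ± 1.25 in PSII light and 22.3 ± 2.85 in PSI light. The photosystem I gene PSAN was at 3.06 ± 0.129 in PSII light and 2.86 ± 0.115 in PSI light (SD, n = 3 each).

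Plastid ribosomes are of the bacterial type and translate the proteins encoded in the plastid genome, among them core subunits of both photosystems and the large subunit of Rubisco. Their small and large subunits each combine proteins made in the plastid with proteins encoded in the nucleus, translated in the cytosol and imported. AT1G29070, AT3G54210 and AT4G01310 encode the large-subunit proteins L34, L17 and L5, and AT1G64510 and AT3G13120 the small-subunit proteins S6 and S10. The gene tables used here give these genes by locus only, and the protein names are background knowledge.

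None of the 5 genes passed the test between light regimes (0 of 5, limma with Benjamini-Hochberg, against 3.14% of all probes past the threshold in either direction). All 5 fitted log2 differences were below 0, from -0.19 for AT4G01310 to -0.08 for AT1G29070, where 43.0% of all probes were below 0. The median of the 5 was -0.17, beside 0.01 over all probes and 0.03 over the probes annotated to 1 gene. At an unadjusted p of 0.05 limma counted 1 of the 5, AT4G01310, against 10.9% of all probes that were lower in PSII light at that level. The exact permutation test, whose smallest p is 0.1 for 3 replicates against 3, gave 0 of 5 after adjustment.

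Among the large-subunit genes, AT4G01310 came nearest to the threshold. Its product L5 binds 5S rRNA in the bacterial ribosome. Its intensity was 0.666, 0.617 and 0.689 in PSII-light replicates 1, 2 and 3, against 0.742, 0.702 and 0.759 in PSI-light replicates 1, 2 and 3. Every PSII-light replicate lay below every PSI-light replicate. The means were 0.657 ± 0.0368 in PSII light and 0.734 ± 0.0296 in PSI light (SD, n = 3 each), a level 10.5% lower in PSII light. The log2 difference of AT4G01310 was -0.19 ± 0.06 (SE; limma, Benjamini-Hochberg adjusted p = 0.170), with a 95% interval between -0.34 and -0.03 before any adjustment for the number of probes.

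AT4G01310 was also the most evenly spaced of the 5 across replicate numbers. Replicates with the same number in both regimes differed by -0.19, -0.15 and -0.22 on the log2 scale for replicates 1, 2 and 3. Single samples of this gene reached 0.611 to 0.715 in PSII light and 0.679 to 0.762 in PSI light, so that single measurements overlapped where replicate means did not. When all 6 samples per group were treated as separate, which counts repeats as independent, AT4G01310 alone of the 5 passed (limma, Benjamini-Hochberg adjusted p = 0.00507), where 12.7% of all probes were called lower. With repeats as a random block its adjusted p was 0.0541 (limma, Benjamini-Hochberg). The probe with the next number on the array, 4298, differed by -0.21 (limma, Benjamini-Hochberg adjusted p = 0.0839), and its part in the value of AT4G01310 was not tested.

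AT3G54210 encodes L17, which in bacteria lies near the exit of the tunnel for the growing protein chain. Its intensity was 1.07, 0.807 and 0.830 in PSII-light replicates 1, 2 and 3, against 0.987, 0.881 and 0.941 in PSI-light replicates 1, 2 and 3. The groups overlapped, since PSII-light replicate 1 was the highest of the 6 values and the other PSII-light replicates the lowest. Mean intensity of AT3G54210 was 0.902 ± 0.145 in PSII light and 0.936 ± 0.0534 in PSI light (SD, n = 3 each). Its log2 difference was -0.10 ± 0.09 (SE; limma, Benjamini-Hochberg adjusted p = 0.551), with a 95% interval between -0.32 and 0.12. Without PSII-light replicate 1 the difference of AT3G54210 was -0.19 (limma, Benjamini-Hochberg adjusted p = 0.256). It was the 1 member with a positive difference between replicates of the same number, 0.05 in replicate 1. Probe 1738, adjacent in number, differed by -0.29 (limma, Benjamini-Hochberg adjusted p = 0.0612), and its part in the value of AT3G54210 was not tested.

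AT1G29070 encodes L34, a small basic protein of the large subunit. Its intensity was 0.336, 0.290 and 0.328 in PSII-light replicates 1, 2 and 3, against 0.321, 0.359 and 0.300 in PSI-light replicates 1, 2 and 3. On these deposited values the groups overlapped, and the means of AT1G29070 were 0.318 ± 0.0246 in PSII light and 0.326 ± 0.0300 in PSI light (SD, n = 3 each). After quantile normalization the replicates no longer overlapped, and the log2 difference was -0.08 ± 0.04 (SE; limma, Benjamini-Hochberg adjusted p = 0.347), with a 95% interval between -0.19 and 0.03. On values as deposited the difference of AT1G29070 was -0.02 (limma, Benjamini-Hochberg adjusted p = 0.850), and replicates 1 and 3 of the same number then differed by 0.04 and 0.08 in the opposite direction. Replicate 2 carried the largest of its differences, -0.20 after normalization. Without PSII-light replicate 2 the fitted value was -0.05 (limma, Benjamini-Hochberg adjusted p = 0.614), and it was also -0.05 without PSI-light replicate 2 (limma, Benjamini-Hochberg adjusted p = 0.525). Probe 512, adjacent in number, differed by -0.14 (limma, Benjamini-Hochberg adjusted p = 0.415), and its part in the value of AT1G29070 was not tested.

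**Figure D1:**
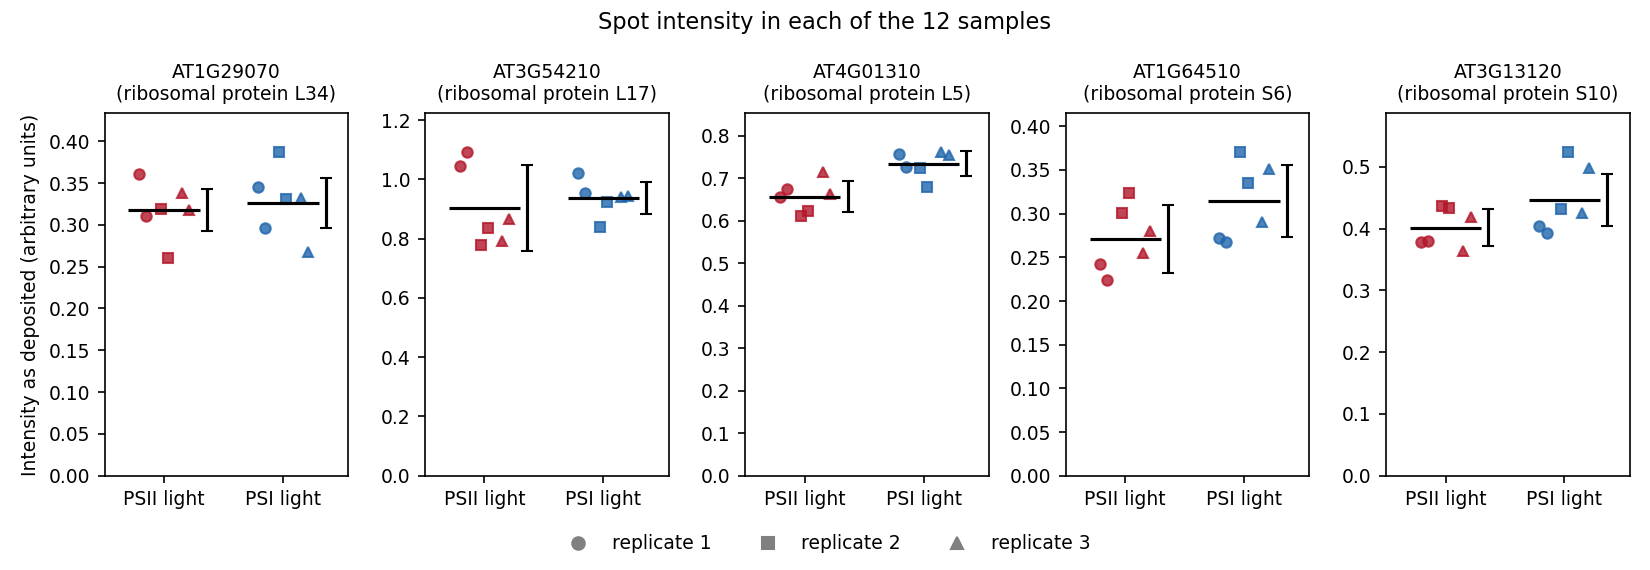
Deposited spot intensity (arbitrary units, vertical axes from 0) of the 5 genes in all 12 samples, with PSII light left of PSI light; points are samples, their shape gives the replicate, horizontal lines are means of 3 replicates and error bars their SD. For AT4G01310 the means are 0.657 in PSII light and 0.734 in PSI light, and the points of all 5 genes overlap between the regimes.

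The small-subunit genes had differences close to that of AT4G01310 in size, with larger standard errors than that gene. AT1G64510 encodes S6, which in bacteria sits on the platform of the small subunit. Its intensity was 0.233, 0.312 and 0.267 in PSII-light replicates 1, 2 and 3, against 0.270, 0.353 and 0.321 in PSI-light replicates 1, 2 and 3. The groups overlapped, because PSII-light replicate 2 lay above PSI-light replicate 1, yet each PSII-light replicate lay below the PSI-light replicate of its own number. Mean intensity of AT1G64510 was 0.271 ± 0.0395 in PSII light and 0.315 ± 0.0417 in PSI light (SD, n = 3 each), 13.8% lower in PSII light. The log2 difference was -0.18 ± 0.09 (SE; limma, Benjamini-Hochberg adjusted p = 0.302), with a 95% interval between -0.39 and 0.04. Probes 1283 and 1285, adjacent to it in number, differed by -0.07 and 0.23 (limma, Benjamini-Hochberg adjusted p = 0.503 and 0.360), and their part in the value of AT1G64510 was not tested.

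AT3G13120 encodes S10, a protein of the head of the small subunit in bacteria. Its intensity was 0.379, 0.435 and 0.391 in PSII-light replicates 1, 2 and 3, against 0.399, 0.478 and 0.461 in PSI-light replicates 1, 2 and 3. As for AT1G64510, the groups overlapped while every PSII-light replicate was below the PSI-light replicate of the same number. Mean intensity of AT3G13120 was 0.402 ± 0.0297 in PSII light and 0.446 ± 0.0419 in PSI light (SD, n = 3 each). The log2 difference was -0.17 ± 0.08 (SE; limma, Benjamini-Hochberg adjusted p = 0.301), with a 95% interval between -0.37 and 0.03. Probe 1010, adjacent in number, was at 1.34 in PSII light and 0.951 in PSI light. It differed in the opposite direction by 0.40 (limma, Benjamini-Hochberg adjusted p = 0.0284), and probe 1012, also adjacent in number, by 0.02. The part of either in the value of AT3G13120 was not tested.

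**Figure D2:**
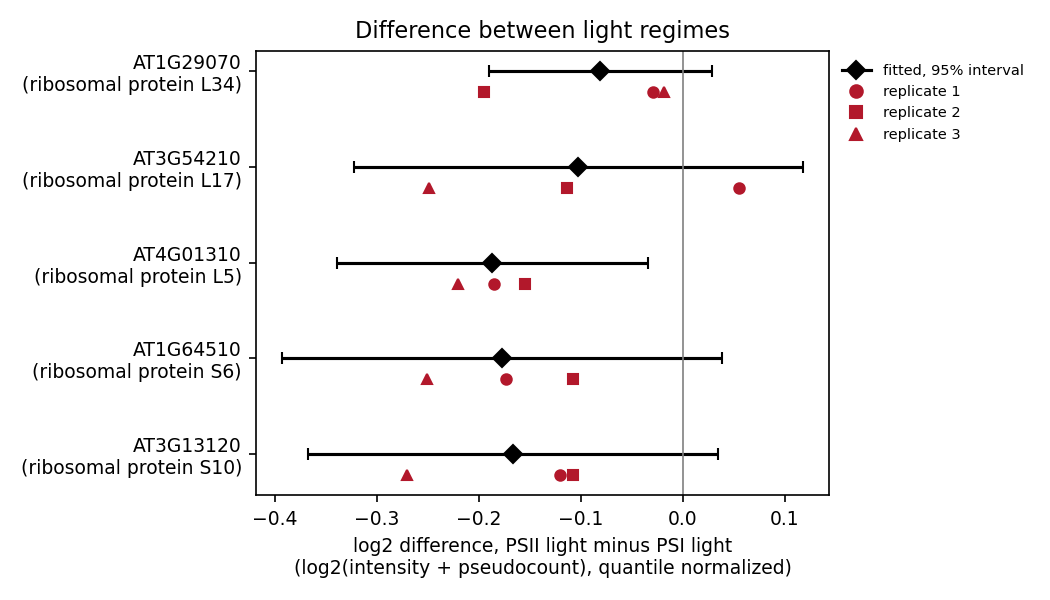
Log2 difference, PSII light minus PSI light, of each gene (horizontal axis); black diamonds are fitted differences with 95% intervals, and red points below them are the differences between replicates of the same number. Only the interval of AT4G01310 lies wholly below 0, and 1 red point, replicate 1 of AT3G54210, lies above 0.

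Of the 5 genes, 4 were lower in PSII light in all 3 replicate numbers (AT4G01310, AT1G64510, AT3G13120 and AT1G29070), as were 23.4% of all probes. On values as deposited these were 3, without AT1G29070, against 15.8% of all probes. Replicates of the groups did not overlap for 2 of the 5, AT4G01310 and AT1G29070, against 12.8% of all probes lower in PSII light. On values as deposited AT4G01310 alone of the 5 met this, against 8.35% of all probes. Since replicates with the same number deviated together across probes, a fit blocked on replicate number was also read. It left the count at 0 of 5, the adjusted p being 0.0893 for AT1G64510, 0.114 for AT4G01310 and 0.146 for AT3G13120 (limma, Benjamini-Hochberg). These 3 genes had an unadjusted p under 0.05 in the blocked fit, where 14.3% of all probes were lower in PSII light at that level.

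**Figure D3:**
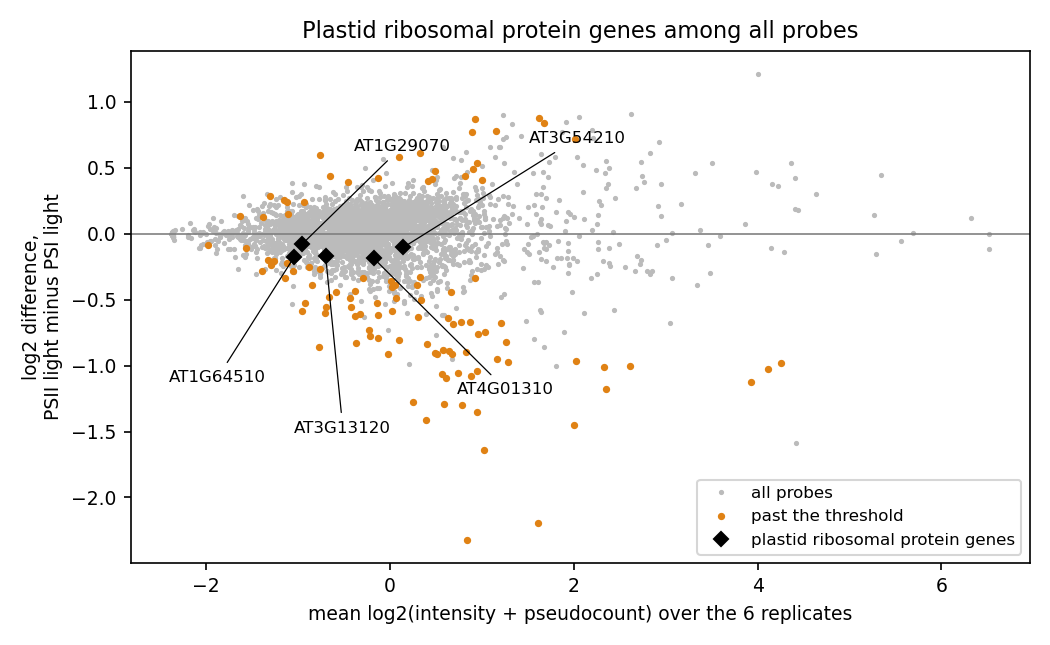
Log2 difference, PSII light minus PSI light (vertical axis), against mean log2(intensity + pseudocount) (horizontal axis) for all 3439 probes; orange points passed the threshold and black diamonds are the 5 plastid ribosomal protein genes. The 5 genes lie between -0.19 and -0.08, within the main cloud of probes, and 12.6% of probes lie below AT4G01310.

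The 5 probes ranged from dim to fairly bright, which describes the spots and not the amount of transcript. By mean log2 value, AT1G64510 and AT1G29070 stood at the 15.1 and 17.7 percentiles of all probes, AT3G13120 at 26.3, AT4G01310 at 55.0 and AT3G54210 at 72.5. The mean intensity of AT1G64510 was 1.51 times the pseudocount and that of AT1G29070 1.67 times, against 4.76 times for AT3G54210. For dim genes the scale therefore compressed the difference most. With a pseudocount of 0.0193, a choice made after seeing the data, AT1G64510 was at -0.28, AT3G13120 at -0.23, AT4G01310 at -0.23 and AT1G29070 and AT3G54210 each at -0.12, and none passed (limma, Benjamini-Hochberg adjusted p between 0.149 and 0.538).

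Repeat measurements of a replicate differed by amounts that varied between the genes. The median difference between the 2 measurements of a replicate was 0.04 on the log2 scale for AT4G01310 and 0.15 for AT1G29070, and it was 0.08 for each of the other 3 genes. For AT1G29070 this exceeded the difference between the light regimes in size, and for AT4G01310 it was smaller. In AT1G29070, however, the lower-numbered sample of each pair read higher in every replicate of both regimes. Its 0.15 thus holds an offset common to both regimes and does not measure the error of their difference.

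The genes did not vary alike within groups. Taken as deviations from the group mean over the 12 samples, AT1G64510 and AT3G13120 correlated at r = 0.82, the highest of all pairs of the 5 genes. This value was reached by 0.905% of the pairs among 653 single-gene probes without a value of 0. That share holds for any 1 pair, and the highest of several pairs would reach the value more often. Both genes were low in replicate 1 of each regime, with mean deviations of -0.13 in PSII light and -0.14 in PSI light for AT1G64510, and -0.09 in PSII light and -0.13 in PSI light for AT3G13120. With the mean of each replicate number removed as well, r was 0.51. The 12 samples share replicates and repeats, so these correlations are descriptions. The remaining pairs of the 5 genes had correlations between -0.52, for AT3G54210 with AT1G64510, and 0.14, for AT4G01310 with AT1G64510.

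**Figure D4:**
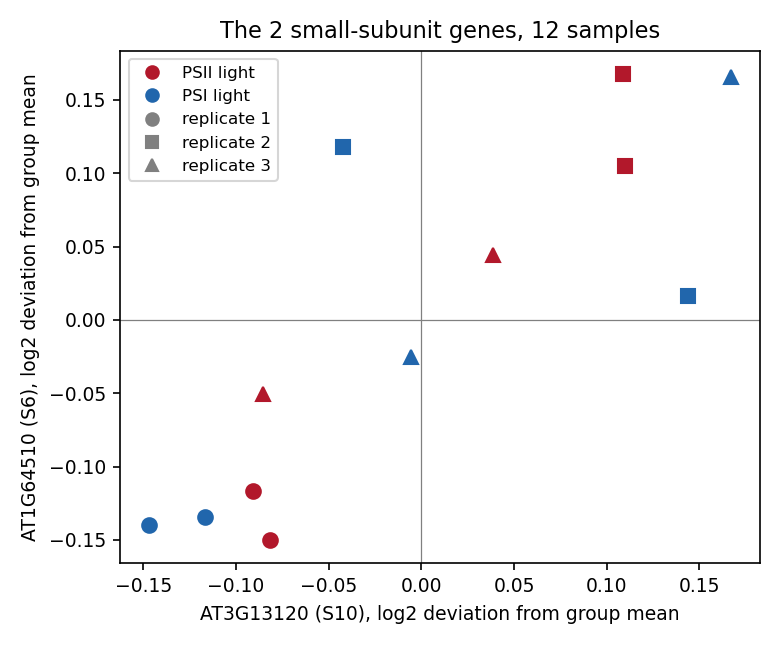
Log2 deviation from the group mean of AT1G64510 (vertical axis) against that of AT3G13120 (horizontal axis) in the 12 samples, red for PSII light and blue for PSI light, with the shape giving the replicate. The 4 samples of replicate 1 lie at the lower left in both regimes, and over all 12 samples r was 0.82.

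The single-gene probes most like the 5 genes were ranked among 648 others by Pearson correlation with the mean of the 5 over the 12 samples. They were AT4G03150 (r = 0.94), AT3G56010 (0.93), AT4G35660 (0.92), AT5G55220 (0.92) and AT1G31790 (0.91). Their own log2 differences were -0.54, -0.31, -2.20, -0.12 and -0.29 in the same order, and AT4G35660 was the 1 of these that passed the test (limma, Benjamini-Hochberg adjusted p = 0.00248). The mean of the 5 was lower in PSII light and this ranking includes that difference, so it favours genes with negative differences. Each r in this paragraph is among the highest of 648, over samples that share replicates and repeats. No chance level was computed for them. On deviations from the group means, which leave out the light regimes, the closest were IQD22 (AT4G23060, r = 0.82) and CKS (AT1G53000, r = 0.82), then AT4G24930 (0.80), AT1G17160 (0.79) and AT3G20920 (0.78). No gene was on both lists of 5. Gene by gene, the closest profiles were those of AT4G21770 to AT4G01310 (r = 0.97), AT4G17260 to AT3G54210 (0.87), AT1G79480 to AT1G64510 (0.86), IQD22 to AT3G13120 (0.79) and RALFL32 (AT4G14010) to AT1G29070 (0.75).

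Little else of plastid translation could be read on this array. Of 38 other nuclear loci for plastid ribosomal proteins, 1 had a probe of its own, that of AT5G65220, which encodes L29 of the large subunit and is listed at 0 in all 12 samples. No probe annotated to several genes held any of these 38 loci. Of 18 loci for plastid translation factors and for ribosome assembly or rRNA processing, 17 were in the gene table, and none of these had a probe of its own. The remaining locus could not be looked up. A further 4 probes annotated to several genes, looked up after the data were seen, held 1 or more of these loci, and no gene can be named from them. Their log2 differences were -0.75, -0.07, -0.06 and 0.28, and the first passed the test, at an intensity of 1.38 in PSII light and 2.50 in PSI light (limma, Benjamini-Hochberg adjusted p = 0.0193). Of 43 loci named as other ribosomal proteins and 11 as tRNA charging enzymes in the symbols and synonyms of the gene table, none had a probe of its own. That search finds a gene only where its symbol or synonym says so, and it found no plastid-encoded ribosomal protein to look for.

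The green tissue markers, genes of carbon fixation and of the photosystems, had differences of both signs. PRK was at 0.31 ± 0.16 and SBPASE at 0.25 ± 0.11 (SE; limma, Benjamini-Hochberg adjusted p = 0.320 for PRK and 0.237 for SBPASE). PSBW and PSAN were also above 0, at 0.38 and 0.11, and PSBY at -0.25, none past the threshold, while LHB1B2 fell by 1.13 (limma, Benjamini-Hochberg adjusted p = 0.0203). Whether any of these differed from the ribosomal protein genes was not tested.

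The scaling alternatives moved the size of the fitted differences and the sign of none of the 5. The 5 values were between -0.13 and -0.02 on values as deposited, between -0.19 and -0.08 with median centring, and between -0.06 and -0.02 with the larger pseudocount of 1.93. The median over all probes was 0.06 on values as deposited. Of all probes, 32.0% were below 0 on values as deposited, 50.3% with median centring and 43.0% with the larger pseudocount.

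**Figure D5:**
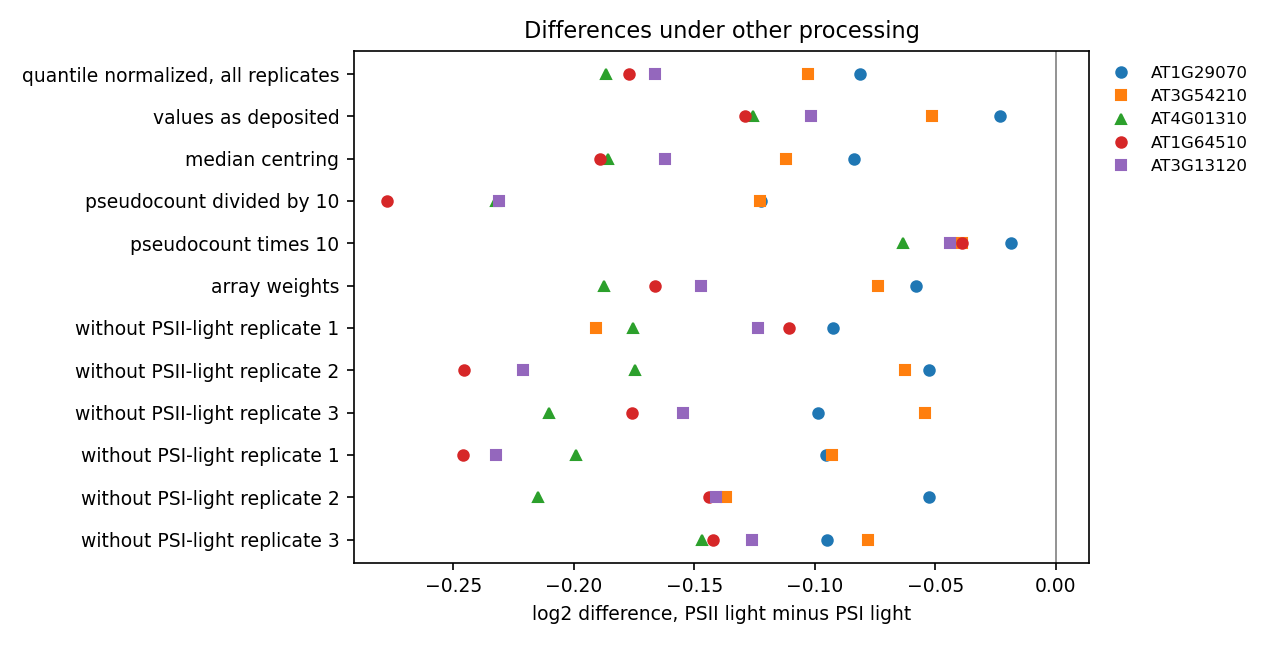
Log2 difference, PSII light minus PSI light (horizontal axis), of the 5 genes under the normalization used and under other scalings, array weights and each replicate left out. All points lie below 0, between -0.28 and -0.02.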

How the data were processed

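The values deposited by the authors were linear intensities, 1 for each probe in each sample, none of them negative. Background correction, scaling, array type and scanner are not given in the sources used here. The log2 of intensity + 0.193 was taken, where 0.193 is the 5th percentile of all values above 0. Arrays were quantile normalized, since sample medians differed by 0.158 on the log2 scale. Before normalization the medians of replicates 1, 2 and 3 were -0.183, -0.270 and -0.220 in PSII light. In PSI light they were -0.255, -0.269 and -0.335. Normalization removed this difference between regimes, and each of the 5 genes had a smaller difference on values as deposited. Repeat measurements were inferred from the values and averaged, the smallest gap between the correlation with the partner and the next being 0.559. Groups were compared over all 3439 probes, without a filter, with a two-sided limma fit (version 3.58.1, R 4.3.3) using an intensity trend in eBayes. The procedure was run on simulated data with independent replicates and differences larger than those of the 5 genes. Detection of differences as small as theirs was not simulated. The labels number the samples 1 to 6 in both regimes, and replicates 1, 2 and 3 are the averages of numbers 1 and 2, 3 and 4, and 5 and 6. Replicates averaged from the same numbers correlated between regimes at 0.323, 0.366 and 0.360 in their deviations across probes. For this reason differences by replicate number are given, and a fit blocked on replicate number was also read. The main fit was not paired, and its SE, intervals and adjusted p take no account of the replicate number.

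Gene names came from a 2016 annotation of the platform, and Entrez identifiers linked 690 of the 692 single-gene probes to the TAIR10.1 gene table. That table has no gene descriptions, so lists set by description were searched in symbols and synonyms. Members, lists and tests were chosen with earlier results of these data known. Named genes are the 5 members, the measured genes of the lists, the markers of green tissue and the closest profiles among single-gene probes without a value of 0. The alternatives were other scalings, pseudocounts, filters, tests, treatments of repeats and omitted replicates. No sequence is given, as none was at hand. Plots were made in Python 3.11.15 (matplotlib 3.10.9).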

Additional observations from a re-analysis of the deposited data

Results flagged for a closer look

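In AT4G01310 the highest of the 6 PSII-light samples, number 5, stood apart from the others. It read -0.18 on the normalized log2 scale, against -0.26 for the next highest and -0.31 for the lowest, so the gap was 0.638 of the group's range, above Dixon's 95% critical value for 6 samples. Its intensity was 0.715, and its repeat measurement read 0.663. Without that replicate the log2 difference of AT4G01310 was -0.21 (limma, Benjamini-Hochberg adjusted p = 0.227). In all, 10 groups of samples were examined in this way, and chance marks about 1 in 20. The samples are repeat pairs and not 6 independent values.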

How the results depend on the processing

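The count of 0 of 5 genes past the threshold became 1 (AT4G01310) with all 6 samples per group as separate, which counts repeats as independent. It was 0 under each of the other alternatives, the replicate block and the omission of each replicate included. For the exact permutation test no other count was possible, as its smallest p of 0.1 lies above the threshold. The blocked fit changed no call among the 5 genes, and 103 of all probes passed in it. The alternative without the dimmest 25% of probes gave no value for AT1G29070 and AT1G64510. Each value that could be computed was below 0, over all settings and all 5 genes. Settings that changed only the test, the filter or the treatment of repeats returned the same fitted values, so their sign could not differ. Only other scalings, pseudocounts, array weights and omitted replicates could move it. Leaving out 1 replicate gave AT4G01310 between -0.21 and -0.15, AT1G64510 between -0.25 and -0.11, AT3G13120 between -0.23 and -0.12, AT3G54210 between -0.19 and -0.05, and AT1G29070 between -0.10 and -0.05, and the adjusted p lay between 0.169 and 0.808 (limma, Benjamini-Hochberg). Over all probes 108 passed. That count was 228 both for median-centred arrays and on dropping the dimmest 25%, 232 with array weights, 173 with robust eBayes, 365 with repeats as a random block, 916 with all 6 as separate samples, 0 by the exact permutation test, and between 20 and 140 on leaving out 1 replicate. The count of other genes of plastid translation could not be computed, since none that could be looked up had a usable probe of its own. Whether the number of arrays or the intensity of the probes limited what could be detected was not tested, nor was the cause of these changes.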
